A study of Citrus sinensis with 12 samples.

Results

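Copper-treated roots of sweet orange (Citrus sinensis) kept at pH 3 were compared with copper-treated roots kept at pH 4.8. The comparison took the 3 RNA sequencing libraries of seedlings grown at pH 3 with 300 µM CuCl2 and the 3 libraries of seedlings grown at pH 4.8 with 300 µM CuCl2, out of 12 in the series. The other libraries came from seedlings given 0.5 µM CuCl2, 3 at pH 3 and 3 at pH 4.8. All seedlings were treated for 17 weeks, and every library pooled the roots of 4 seedlings from separate pots. In the labels, pH 4.8 and 0.5 µM copper are the controls. Of 20122 listed genes, 18787 averaged 1 FPKM or more in 1 or both copper-treated groups and were compared. FPKM is the number of fragments on a gene for each kilobase of its length, scaled by library depth.

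Copper is a micronutrient that plant enzymes use to move electrons, and in excess it damages membranes and proteins, largely through reactive oxygen species. Roots meet it first, and acidity bears on their exposure because copper is more soluble in acid media. Protons themselves injure root tips and shift the uptake of mineral nutrients. By its title the study asks how high pH mitigates copper injury in roots, and the comparison of both pH values under the same copper dose bears on that question.

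The tables give identifiers, positions and strands, with no gene names or functions. None of the 20122 identifiers (0 matches) was found in the RefSeq gene table of the species, so genes are given by identifier and position, and root markers could not be checked. Identifiers such as Cs4g02690 lie on 1 of 9 chromosomes, those starting with orange1.1t lie on unplaced sequence, and loci without an annotated identifier are called assembled loci here. Coordinates are those of the authors' tables, whose genome build is not given in the sources used here. Depth, read from the spacing of low FPKM values, was 17760000 to 21860000 fragments in the 6 copper-treated libraries, which makes 3 fragments on a gene of 1 kb worth 0.137 to 0.169 FPKM. Replicate 2 at pH 3 with copper stood apart from replicates 1 and 3 of its group. It correlated with them across genes at r = 0.978 and 0.972, whereas they correlated at 0.987 with each other. In it 200 genes lay at least 1 log2 unit below both other replicates, against 7 to 25 genes in each of the 5 other copper-treated libraries. Of these 200 genes, 170 were not called in the comparison, 29 were called higher at pH 3 and 1 was called lower. Of all tested genes 34.5% were called. The 200 genes were chosen for a wide spread within a compared group, which itself makes calls rarer. Their calls therefore do not show how far this replicate affected the comparison.

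Under copper excess, 6487 of 18787 genes differed between pH 3 and pH 4.8, 34.5% of those tested. Higher at pH 3 were 3013 genes (16.0%), and lower were 3474 (18.5%). A gene was called when limma, fitted to the 6 libraries on log2(FPKM + 1), gave a Benjamini-Hochberg adjusted p under 0.05. Differences below are pH 3 minus pH 4.8 on that scale, in log2 units, which understates the change of genes near 1 FPKM. The p-values measure the spread between pools of seedlings. In whole roots, fewer cells of a type and less RNA per cell cannot be told apart. The libraries of the 2 groups did not overlap in 9173 of all tested genes (48.8%). They did not overlap in 3001 of the genes called higher and 3440 of those called lower, where 22.1% and 26.7% of all tested genes were separated in those directions. Without replicate 2 at pH 3, 7628 genes were called, and without replicate 2 at pH 4.8, 4285, of which 2173 were lower. Without replicate 1 at pH 4.8, 2293 genes were lower. Median scaling of the libraries gave 3169 higher and 3264 lower genes, so the size of the excess of lower genes depended on the scale.

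Large changes lay mostly on the side of pH 3. By at least 1 log2 unit (2-fold), 1430 genes differed (7.61% of those tested), of which 916 genes were higher (4.88%) and 514 lower (2.74%). By at least 2 units (4-fold), 236 were higher and 14 lower, and by at least 3 units (8-fold), 101 were higher and 0 lower. A difference of at least 5 units was found for 12 genes, all higher at pH 3. With a pseudocount of 0.1 in place of 1 the 4-fold numbers became 495 and 52, and the 2-fold numbers 1262 and 1001. Without replicate 2 at pH 3, 897 genes were higher and 618 lower by 2-fold, and 847 and 483 of them were among those above. Without replicate 1 at pH 3, 3 genes were lower by 4-fold.

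**Figure D1:**
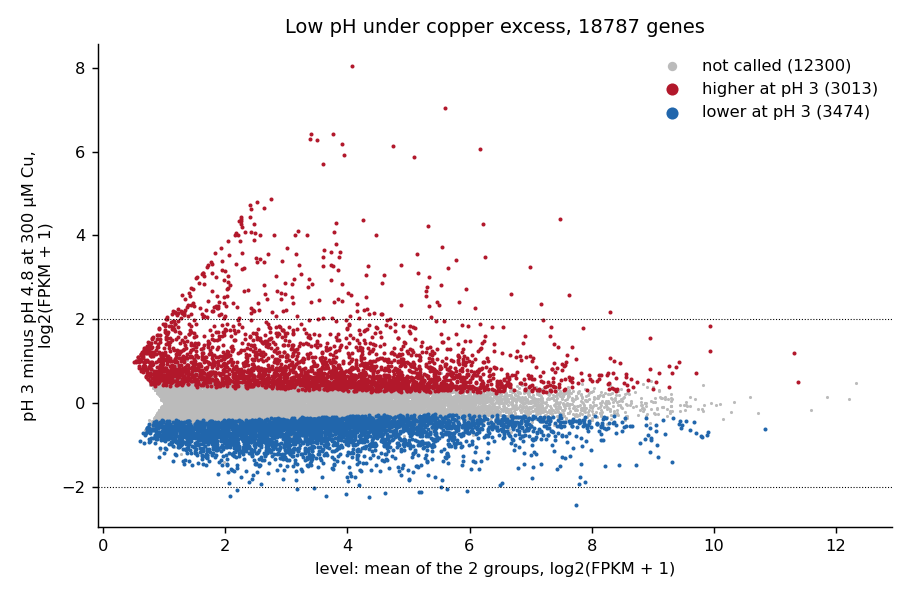
Difference between pH 3 and pH 4.8 at 300 µM copper (vertical axis, log2 units) against the level of the gene (horizontal axis, mean of the 2 groups in log2(FPKM + 1)), 1 point for each of 18787 genes. Dotted lines mark 4-fold changes: 236 called genes lie above the upper line and 14 below the lower line.

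The highest-ranking rise was at orange1.1t05521, a gene of 176 bp on unplaced sequence (87539307 to 87539482). It had 338.37, 146.59 and 365.99 FPKM in the libraries at pH 3 with copper and was listed at 0 in all 3 at pH 4.8 with copper (limma adjusted p = 1.6e-06). Without copper excess it stood at 196.02 to 331.76 FPKM at pH 3 and at 208.22 to 487.49 at pH 4.8, so the group at pH 4.8 with copper was the one that differed.

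The assembled locus at 767533 to 768050 of chromosome 3 showed another pattern. It reached 356.89, 723.52 and 551.43 FPKM at pH 3 with copper, against 4.46, 1.29 and 4.10 FPKM at pH 4.8 with copper, differing by 7.03 (SE 0.35, limma adjusted p = 5.5e-06). In the 6 libraries at 0.5 µM copper it had 0.13 to 12.88 FPKM. Here the group at pH 3 with copper was far above all others.

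The next 3 rises resembled the first. Cs2g06910 (chromosome 2, 4045764 to 4046409) had 149.97, 70.27 and 150.15 FPKM at pH 3 with copper and 0.00, 0.10 and 1.32 FPKM at pH 4.8 with copper. Cs7g11650 (chromosome 7, 7639593 to 7640296) had 116.85, 59.46 and 119.51 FPKM at pH 3 with copper and 0.00, 0.00 and 0.39 FPKM at pH 4.8 with copper. Cs7g05270 (chromosome 7, 2789430 to 2790760) had 117.42, 54.86 and 106.01 FPKM at pH 3 with copper and 0.00, 0.00 and 0.48 FPKM at pH 4.8 with copper. In each of the 3 genes replicate 2 was the lowest at pH 3 with copper, and the groups lay far apart. Their differences were 6.43, 6.41 and 6.29 (SE 0.37, 0.27 and 0.28, limma adjusted p = 1.1e-05, 2.7e-06 and 4.1e-06), and became 8.58, 9.11 and 8.94 with a pseudocount of 0.1. At 0.5 µM copper they averaged 78.8, 73.1 and 71.6 FPKM at pH 3 and 123, 94.7 and 67.7 FPKM at pH 4.8.

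A total of 35 genes were at 0.5 FPKM or less in all 3 libraries at pH 4.8 with copper and at 5 FPKM or more in all 3 at pH 3 with copper. No gene (0 of 18787) showed the reverse. Summed over the 35 genes, the libraries at pH 3 with copper held 1155, 611 and 1226 FPKM, and those at pH 4.8 with copper 3.17, 2.63 and 6.58 FPKM. Replicate 2 was the lowest of its group at pH 3 with copper in 28 of the 35 genes. Within the groups at 0.5 µM, replicate 1 was the lowest at pH 3 in 30 genes and replicate 2 at pH 4.8 in 26. Most of these genes thus moved together between libraries of a group and are not 35 separate observations. At 0.5 µM copper the sums were 547, 860 and 849 FPKM at pH 3 and 679, 609 and 1259 FPKM at pH 4.8. Of the 35 genes, 20 had at least 5 FPKM in all 6 libraries at 0.5 µM, and 1 was at 0.5 FPKM or less in all 6. The 35 genes spanned 176 to 3588 bp, with a median of 1240. They included 6 each on chromosomes 5 and 7, 5 on chromosome 9 and 0 on chromosome 8. These chromosomes held 2379, 2221, 1223 and 1340 tested genes, in that order. Whether the 35 genes were spread otherwise than all tested genes was not tested. The number of genes that met the rule depended on the replicate at pH 3 that stood apart: without it 52 did. Leaving out a library can only keep or raise this number.

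Of the 1067 genes that averaged 100 FPKM or more over the 6 libraries, 157 were higher at pH 3, 259 were lower and 651 were not called. Without replicate 2 at pH 4.8 these were 101 and 158, and without replicate 1 at pH 3, 172 were lower. The class is set on the mean over both groups, so a gene can enter it through the group where it is high. The rises named next did so, and were far under 100 FPKM in every library at pH 4.8 with copper. Cs4g02690 (chromosome 4, 1254521 to 1255539) had 233.91, 175.46 and 261.82 FPKM at pH 3 with copper and 1.97, 2.01 and 2.55 FPKM at pH 4.8 with copper, a 103-fold ratio of means. Its difference was 6.13 (SE 0.16, limma adjusted p = 7.8e-07). The gene orange1.1t03024 (unplaced sequence, 47124099 to 47126213) had 482.64, 735.95 and 529.26 FPKM at pH 3 with copper, against 9.71, 5.17 and 8.73 FPKM at pH 4.8 with copper. This was a 74.0-fold ratio of means, a difference of 6.06 (SE 0.22, limma adjusted p = 1.5e-06). It averaged 16.3 ± 0.363 FPKM at pH 3 and 13.7 ± 5.99 FPKM at pH 4.8 at 0.5 µM copper (SD, n = 3 each), below each of its values at pH 3 with copper.

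Falls among abundant genes were smaller in size. Cs2g31160 (chromosome 2, 30493281 to 30494670) had 78.47, 113.99 and 83.06 FPKM at pH 3 with copper and 465.56, 512.30 and 495.64 FPKM at pH 4.8 with copper, a 5.35-fold higher mean at pH 4.8 (difference -2.42, SE 0.14, limma adjusted p = 1.3e-05). Cs3g26900 (chromosome 3, 28036265 to 28042572) had 41.59, 49.73 and 44.23 FPKM at pH 3 with copper and 178.02, 181.39 and 168.05 FPKM at pH 4.8 with copper (difference -1.94, SE 0.10, limma adjusted p = 6.0e-06). In both genes the gap between the groups was several times the range within either. Cs6g21260 (chromosome 6, 20465439 to 20466252) averaged 115 ± 37.2 FPKM at pH 3 with copper and 427 ± 68.3 FPKM at pH 4.8 with copper (SD, n = 3 each), a difference of -1.92 (SE 0.21, limma adjusted p = 0.00028). An assembled locus on chromosome 8 (4853150 to 4854203) averaged 46.8 ± 3.72 FPKM at pH 3 with copper and 178 ± 30.1 FPKM at pH 4.8 with copper, differing by -1.90 (SE 0.13, limma adjusted p = 2.5e-05). The 3 annotated genes were also lower at pH 3 at 0.5 µM copper, with differences of -1.27 to -1.02 and limma adjusted p from 7.1e-05 to 0.00054, whereas the locus on chromosome 8 differed there by 0.13 (limma adjusted p = 0.53).

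The remaining largest falls were in genes of lower level. Cs2g14920 (chromosome 2, 11821833 to 11823946) had 5.30, 12.49 and 8.16 FPKM at pH 3 with copper and 42.63, 45.53 and 38.60 FPKM at pH 4.8 with copper (difference -2.23, SE 0.24, limma adjusted p = 0.00023). The gene orange1.1t00730 (unplaced sequence, 8723230 to 8724674) had 0.75, 1.43 and 0.73 FPKM at pH 3 with copper and 7.44, 9.33 and 7.36 FPKM at pH 4.8 with copper (difference -2.21, SE 0.17, limma adjusted p = 5.2e-05). Cs1g23100 (chromosome 1, 25723176 to 25725894) had 5.42, 5.67 and 3.61 FPKM at pH 3 with copper and 26.48, 25.76 and 25.28 FPKM at pH 4.8 with copper (difference -2.20, SE 0.15, limma adjusted p = 2.5e-05). The levels of Cs1g23100 at 0.5 µM copper, 6.73 ± 1.32 FPKM at pH 3 and 6.60 ± 0.805 FPKM at pH 4.8 (SD, n = 3 each), lay beside its level at pH 3 with copper. The gene orange1.1t05402 (unplaced sequence, 86463363 to 86464615) had 3.92, 11.62 and 4.79 FPKM at pH 3 with copper and 33.78, 29.16 and 29.96 FPKM at pH 4.8 with copper (difference -2.17, SE 0.30, limma adjusted p = 0.00095). In Cs2g14920, orange1.1t00730 and orange1.1t05402, replicate 2 had the highest value at pH 3 with copper, and in all 4 genes the groups did not overlap.

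**Figure D2:**
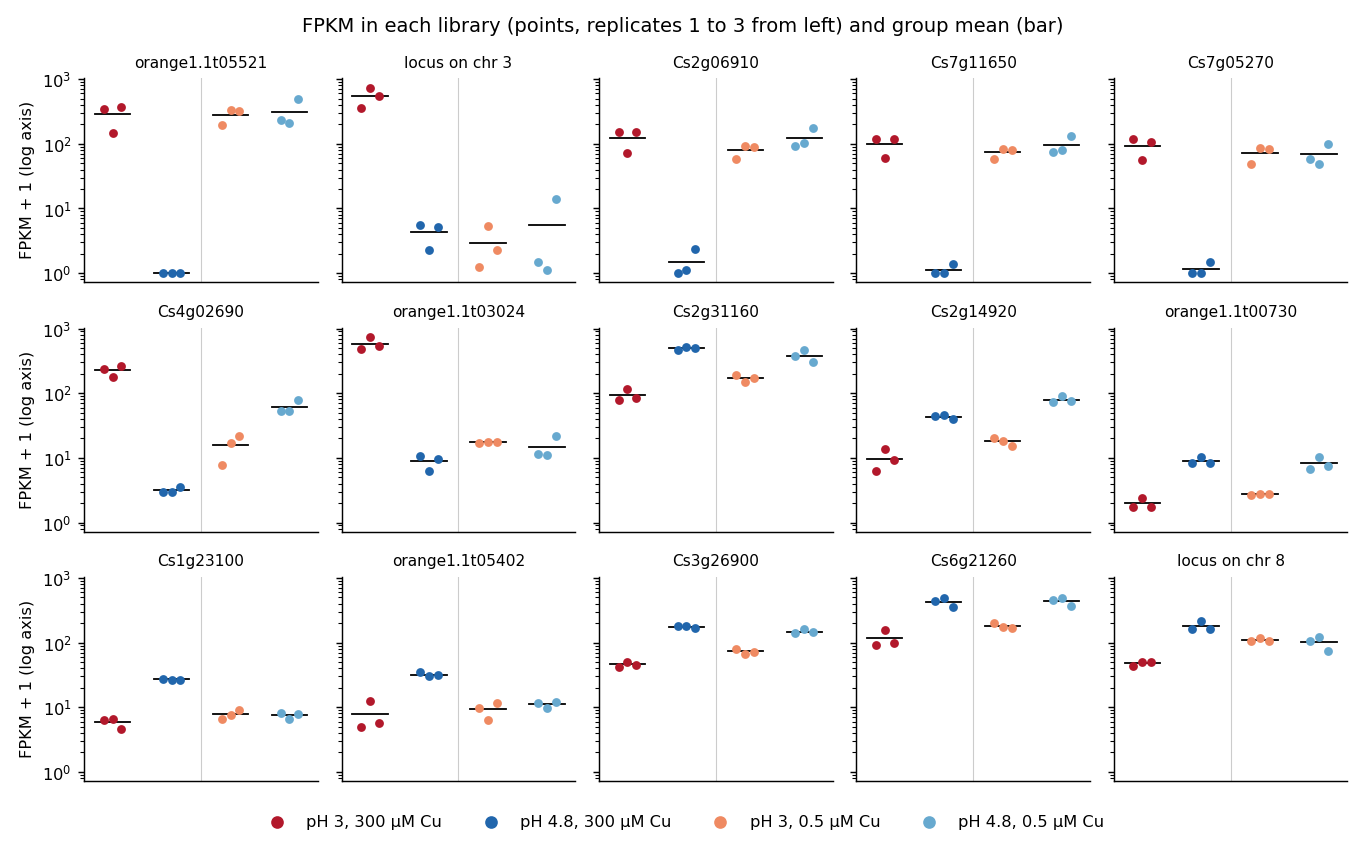
FPKM + 1 on a log axis in each library (points, replicates 1 to 3 from left) with the group mean (bar), for the 7 largest rises and 8 largest falls at pH 3 with copper among the genes named here for size or abundance. Left of the grey line are the groups at 300 µM copper, right of it those at 0.5 µM. In orange1.1t05521, Cs2g06910, Cs7g11650 and Cs7g05270 the group at pH 4.8 with 300 µM copper lies far below the other groups, which lie close together.

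The same contrast without copper excess shares no library with this one. At 0.5 µM copper, 7853 of the same 18787 genes (41.8%) differed between pH 3 and pH 4.8, with 3175 higher (16.9%) and 4678 lower (24.9%). Median scaling gave 3842 higher and 3777 lower there, so that split depended on the scale. Replicates were also closer there: SDs of genes had a median of 0.114 log2 units in both groups at 0.5 µM. At 300 µM the medians were 0.179 at pH 3 and 0.125 at pH 4.8. Smaller differences can be called where the spread is smaller. Genes were also admitted by their level at 300 µM alone, so those reaching 1 FPKM only at 0.5 µM are missing. The counts therefore do not show at which copper level low pH altered more genes. The same genes entered the test between copper levels below. Of the 3013 genes higher at pH 3 under copper excess, 1035 (34.4%) were also higher at 0.5 µM, which is 32.6% of the 3175. Of the 3474 lower genes, 1950 (56.1%) were also lower at 0.5 µM, 41.7% of the 4678. Opposite directions were called for 246 genes that were higher at 300 µM and lower at 0.5 µM, and for 278 genes the other way round. Among the 514 genes that fell by at least 2-fold, 353 (68.7%) were also lower at 0.5 µM, and among the 916 that rose by at least 2-fold 324 (35.4%) were also higher. Whether these shares differ was not itself tested. Across genes, which share libraries and are no replicates, the 2 differences correlated at r = 0.33 and Spearman's rho = 0.42.

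Whether the low pH effect depended on copper was tested as its difference at 300 µM minus that at 0.5 µM, with all 12 libraries in the fit. It was called for 3923 genes (20.9%), with 2161 values above 0 (11.5%) and 1762 below (9.38%). Which sign was more frequent depended on the scale: quantile normalization gave 1915 positive and 2066 negative values, and median scaling 1895 and 1949. The value was called and above 0 for 784 of the 916 genes that rose by at least 2-fold under copper excess (85.6%). It was called and below 0 for 239 of the 514 that fell (46.5%). These genes were chosen by their difference at 300 µM, which is part of the tested value, so both shares are descriptions that the choice itself raises.

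The largest values in this test were 8.21 for Cs4g02690, 8.11 for orange1.1t05521 and 7.25 for the assembled locus at 767533 on chromosome 3 (limma adjusted p = 1.9e-07, 5.4e-07 and 0.00049). Cs4g02690 changed sides: at 0.5 µM copper it had 6.80, 15.84 and 21.04 FPKM at pH 3 and 52.06, 52.30 and 76.93 FPKM at pH 4.8, a difference of -2.08 (limma adjusted p = 0.0014). The most negative values were -3.15 for Cs1g19920, -3.12 for Cs7g01050 and -2.91 for orange1.1t05560 (limma adjusted p = 3.7e-05, 1.1e-05 and 0.00047). Cs1g19920 (chromosome 1, 23077109 to 23077600) had 3.86, 7.72 and 3.71 FPKM at pH 3 with copper and 6.37, 11.28 and 6.98 FPKM at pH 4.8 with copper, ranges that overlapped (difference -0.62, limma adjusted p = 0.11). Its large low pH difference was at 0.5 µM, 37.6 ± 4.34 FPKM at pH 3 and 5.72 ± 1.09 FPKM at pH 4.8 (SD, n = 3 each). Cs7g01050 (chromosome 7, 36794 to 37597) was likewise not called under copper excess (difference -0.40, limma adjusted p = 0.12), where it had 164.64 to 278.98 FPKM at pH 3 and 265.91 to 304.56 FPKM at pH 4.8. Without replicate 2 at pH 3 both genes were called lower, with limma adjusted p of 0.011 for Cs1g19920 and 0.0125 for Cs7g01050. The gene orange1.1t05560 (unplaced sequence, 87941310 to 87941945) was lower at pH 3 with copper, 40.1 ± 12.3 against 82.0 ± 17.7 FPKM, and higher at pH 3 with 0.5 µM copper, 42.8 ± 16.8 against 10.7 ± 3.41 FPKM (SD, n = 3 each).

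**Figure D3:**
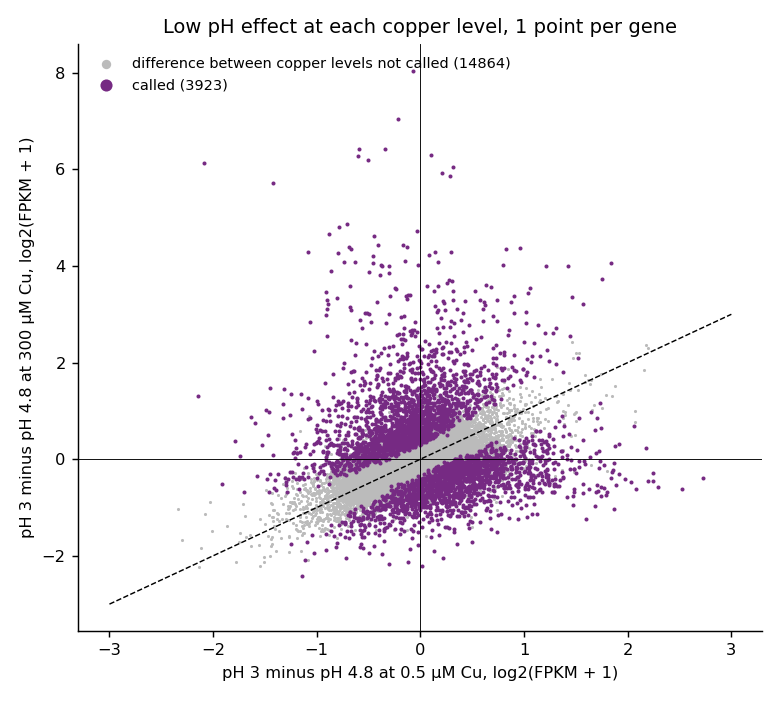
Low pH effect (pH 3 minus pH 4.8, log2 units) at 300 µM copper (vertical axis) against that at 0.5 µM copper (horizontal axis), 1 point per gene. On the dashed line both effects are equal; the 3923 genes whose effect differed between copper levels are coloured, 2161 of them with a value above 0 and 1762 below. Genes with a large effect on the vertical axis lie off the line unless their effect at 0.5 µM is as large.

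Other genes had a low pH effect in the same direction at both copper levels. Cs1g06880 (chromosome 1, 6942425 to 6943980) had 299.53, 423.21 and 262.40 FPKM at pH 3 with copper and 62.60, 64.28 and 57.67 FPKM at pH 4.8 with copper, a difference of 2.37 (SE 0.16, limma adjusted p = 2.6e-05). At 0.5 µM it had 643 ± 39.7 FPKM at pH 3 and 142 ± 16.1 FPKM at pH 4.8 (SD, n = 3 each), a difference of 2.18 (limma adjusted p = 1.4e-05). Cs1g04680 (chromosome 1, 4221580 to 4223195) differed by 2.31 at 300 µM and 2.19 at 0.5 µM, and Cs9g06160 (chromosome 9, 3729742 to 3731245) by 1.85 and 2.15. Cs1g04680 was at low levels, with 0.15, 0.60 and 0.05 FPKM at pH 4.8 with copper and a mean of 5.22 at pH 3 with copper. At 0.5 µM it averaged 9.49 FPKM at pH 3 and 1.29 at pH 4.8. Its difference at 300 µM became 4.15 with a pseudocount of 0.1, so its size depended on the pseudocount. Lower at both levels were Cs2g14920, described above, by -2.23 and -2.13, Cs8g01990 (chromosome 8, 605311 to 605933) by -1.84 and -2.12, and Cs1g13290 (chromosome 1, 16374746 to 16378506) by -2.13 and -1.78. For these 6 genes the difference between copper levels was -0.35 to 0.28, with limma adjusted p from 0.37 to 0.85, which does not show that the effects were equal.

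The 916 genes that rose by at least 2-fold were sorted by which copper-treated group their levels at 0.5 µM copper were nearer to. For 372 of them (40.6%) both groups at 0.5 µM were nearer to the level at pH 3 with copper. The medians of these genes were 15.8 FPKM at pH 3 with copper, 3.19 at pH 4.8 with copper, 16.1 at pH 3 with 0.5 µM and 14.7 at pH 4.8 with 0.5 µM. In them the group at pH 4.8 with copper was the low one. For 375 (40.9%) both were nearer to the level at pH 4.8 with copper. Their medians were 7.86 FPKM at pH 3 with copper, 1.63 at pH 4.8 with copper and 1.55 at pH 3 with 0.5 µM, and pH 4.8 with 0.5 µM was lowest, so the group at pH 3 with copper was the high one. Among the 236 genes that rose by at least 4-fold, the 2 kinds numbered 108 and 105. In a further 117 of the 916 genes each group at 0.5 µM was nearer to the copper-treated group of its own pH, and in the last 52 to that of the other pH. With a filter of 5 FPKM in place of 1, 244 genes were of the kind that was high at pH 3 with copper.

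The 514 genes that fell by at least 2-fold were distributed otherwise. The most frequent kind, with 237 genes (46.1%), had each group at 0.5 µM nearer to the copper-treated group of its own pH. Their medians were 4.53 FPKM at pH 3 with copper, 11.9 at pH 4.8 with copper, 5.72 at pH 3 with 0.5 µM and 10.8 at pH 4.8 with 0.5 µM. In 149 genes both groups at 0.5 µM were nearer to pH 3 with copper, as in Cs1g23100, in 122 nearer to pH 4.8 with copper, and in the last 6 each was nearer to the group of the other pH. A pseudocount of 0.1 made the 149 and 122 genes 275 and 254. These kinds describe the genes and were not tested.

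**Figure D4:**
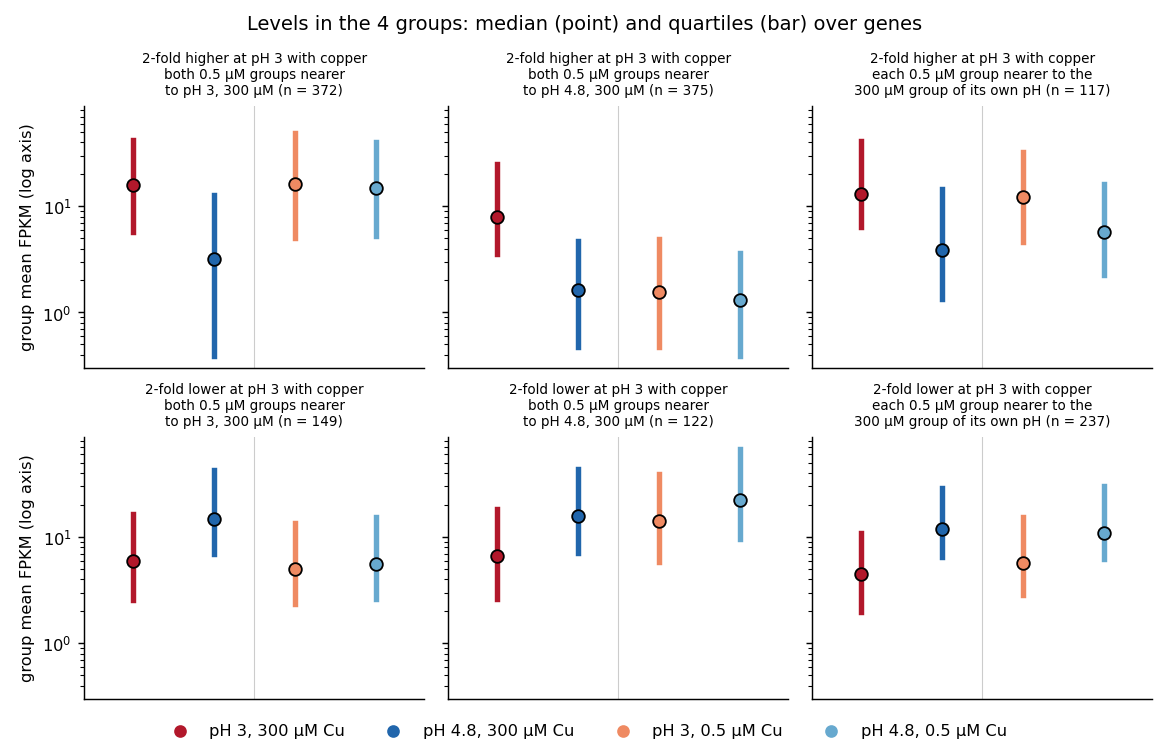
Group mean FPKM (log axis) of genes that rose (upper row) or fell (lower row) by at least 2-fold at pH 3 with copper, by where the groups at 0.5 µM copper lie. Points are medians and bars quartiles over genes. Of the 916 rises, the panels hold 372 genes that are low in the group at pH 4.8 with copper, 375 that are high in the group at pH 3 with copper and 117 that follow pH.

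Neighbouring genes moved together in places. In order of position, 22 runs of 3 or 4 consecutive listed genes were all higher at pH 3 by at least 2-fold, and 3 runs were all lower. Consecutive here means in the list, so unlisted genes may lie between members. Whether there were more runs than for genes in random order was not tested. The rising runs held 74 of the 916 genes (8.08%) on 8 chromosomes and on unplaced sequence, and covered 6.85 to 115 kb each. All members lay on 1 strand in 13 of the 22 rising runs and in the 3 falling ones. A pair of assembled loci in the run at 24360056 to 24377606 of chromosome 5 had no strand listed, so that run is not among the 13. The number of falling runs depended on single libraries, with 6 without replicate 2 at pH 3 and 5 without replicate 3 at pH 4.8. A pseudocount of 0.1 gave 39 rising and 11 falling runs, and a filter of 5 FPKM 12 rising ones. The counting of reads with several matches is not given in the sources used here; values of neighbours that are similar copies are therefore uncertain.

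Among the 8 rising runs of 4 genes, the one with the largest mean difference lay on the minus strand of chromosome 3 (767533 to 797603) and began with the assembled locus described above. Its neighbour Cs3g01585 (770541 to 771107) had 78.96, 166.89 and 129.70 FPKM at pH 3 with copper and 0.47, 0.11 and 1.78 FPKM at pH 4.8 with copper, differing by 6.19 (SE 0.35, limma adjusted p = 1.1e-05). The order of the 3 replicates at pH 3 was the same in both. It was also that of genes elsewhere, such as orange1.1t03024 with 482.64, 735.95 and 529.26 FPKM, so it is not particular to these neighbours. The other 2 members were at low levels, an assembled locus at 775097 to 783737 with 4.39 ± 2.65 against 0.120 ± 0.120 FPKM and Cs3g01590 with 7.72 ± 0.709 against 2.85 ± 0.133 FPKM (SD, n = 3 each).

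A run on chromosome 5 (24360056 to 24377606) was led by Cs5g21860 (24360056 to 24361268). This gene had 691.29, 1050.5 and 729.20 FPKM at pH 3 with copper and 44.68, 29.36 and 40.30 FPKM at pH 4.8 with copper, a difference of 4.39 (SE 0.19, limma adjusted p = 4.1e-06). Both groups lay above the 10.09 to 19.03 FPKM of the libraries at 0.5 µM copper. A pair of assembled loci beside it averaged 36.3 and 39.9 FPKM at pH 3 with copper and 1.23 and 1.48 FPKM at pH 4.8 with copper, differences of 4.10 and 4.01 (limma adjusted p = 1.3e-05 and 1.7e-05). The last member, Cs5g21870, averaged 7.71 ± 1.67 FPKM at pH 3 with copper and 2.31 ± 0.684 FPKM at pH 4.8 with copper (SD, n = 3 each). Cs4g02690 and Cs7g05270 also stood in rising runs, on chromosome 4 (1245320 to 1255539) and chromosome 7 (2771940 to 2808009).

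Falling neighbours were found on chromosome 2 (29450492 to 29508142) and chromosome 4 (1661868 to 1684988), each a run of 4 on 1 strand. On chromosome 2, Cs2g30020 had 70.41, 139.43 and 92.06 FPKM at pH 3 with copper and 311.93, 249.30 and 315.91 FPKM at pH 4.8 with copper (difference -1.58, SE 0.22, limma adjusted p = 0.001). Cs2g30030 had 192.40, 271.07 and 167.38 FPKM at pH 3 with copper and 648.73, 489.44 and 606.82 FPKM at pH 4.8 with copper (difference -1.48, SE 0.19, limma adjusted p = 0.00052). Cs2g30040 and the assembled locus at 29450492 to 29452006 differed by -1.49 and -1.42. In all 4 members of this run the level at pH 4.8 with copper was above all 6 libraries at 0.5 µM. On chromosome 4, Cs4g03250 had 13.06, 15.46 and 13.69 FPKM at pH 3 with copper and 42.46, 40.77 and 45.32 FPKM at pH 4.8 with copper (difference -1.54, SE 0.10, limma adjusted p = 2.2e-05). Cs4g03270, Cs4g03280 and Cs4g03300 differed by -1.47, -1.16 and -1.51.

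**Figure D5:**
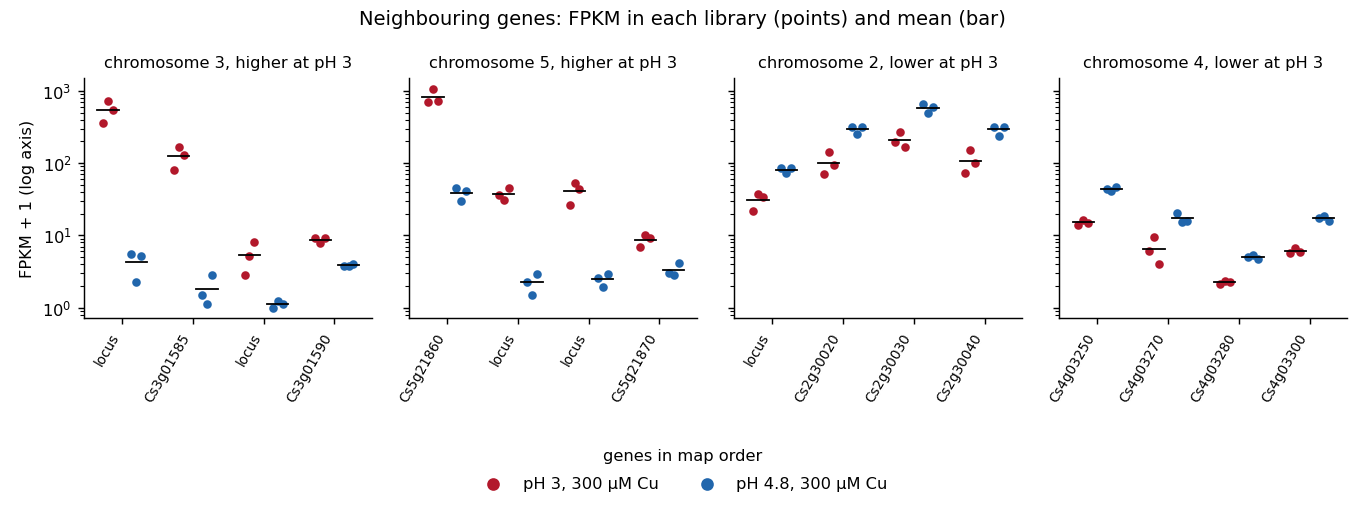
FPKM + 1 (log axis) in each library (points) and group mean (bar) for the members of 4 runs of neighbouring genes at 300 µM copper, in map order. The first 2 panels show runs that were higher at pH 3 and the last 2 runs that were lower, and within each gene the points of both groups do not overlap.

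Level, length and position of the genes were set beside the calls as descriptions. Of 6447 genes with a mean under 5 FPKM, 949 were higher at pH 3, 1044 lower and 4454 not called, a majority that turned without replicate 1 or 2 at pH 4.8 (51.4% and 52.0% of calls higher, with 684 and 651 lower). In this class 373 genes rose and 148 fell by at least 2-fold. Genes spanning under 1 kb rose by at least 2-fold in 9.27% of 1866 cases and fell in 5.73%, and those of 5 kb or more in 1.97% and 1.16% of 4324. By chromosome, the share of tested genes called was 32.0% to 38.0%, lowest on chromosome 7 and highest on chromosome 9. Rises of at least 2-fold made up 6.70% of the genes of chromosome 9 and 3.71% of those of chromosome 6. Assembled loci were called in 27.3% of 1239 cases and annotated genes on chromosomes in 35.3% of 15022.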

How the data were processed

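Each library had a table deposited by the authors with FPKM values to 2 decimals and gene positions. The tools listed per the submitters' processing notes, without their roles, include HISAT2 2.1.0, StringTie 1.3.4d, featureCounts 1.6.2, fastp 0.19.3 and DESeq2 1.22.1. Per the labels' protocols, the NEBNext Ultra kit and 1 µg of RNA were used for each library. Groups follow the treatment labels; titles of the control libraries at pH 4.8 give 5 µM copper where the label gives 0.5 µM, which was used.

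FPKM was transformed as log2(FPKM + 1), and genes averaging 1 FPKM or more in a copper-treated group were tested (1335 left out). Each low pH contrast was fitted to its own 6 libraries by limma 3.58.1 under R 4.3.3, with a variance trend, because SDs of genes had a median of 0.179 log2 units at pH 3 with copper and of 0.114 to 0.125 in the other groups. The difference between copper levels used all 12. Adjusted p-values are Benjamini-Hochberg values, two-sided, threshold 0.05. The fit was tested on simulated data with independent noise and, for each gene, the same spread in both groups. That test does not cover the unequal spread of the groups or the replicate that stood apart. Depth came from genes under 900 bp and 6 FPKM: at the best depth 76.7% to 78.2% of values in the 6 libraries lay 0.15 or less from a whole number of fragments (30% by chance), so no counts were rebuilt. The floor of 3 fragments covers counting error only. Named genes follow a rule: the 5 largest rises and falls whose higher group averaged 5 FPKM or more, without overlap, the 4 largest among abundant genes, 3 genes near 0 in 1 group, the 2 longest runs of neighbours per direction, and the 3 extremes of the other tests. The members, lists and rules were chosen with earlier results of these data known. The 4-fold counts, level kinds, and alternatives for runs and for genes near 0 were added after seeing the data.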

Additional observations from a re-analysis of the deposited data

Results flagged for a closer look

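The low pH effect differed between 300 and 0.5 µM copper, in limma's test of that difference, for 3923 of 18787 genes (20.9%). It was also called for 29 of the 38 genes named above. These genes were chosen by their difference at 300 µM, by this test, or for large differences in the same direction at both copper levels. That number therefore only describes them. The genes chosen for the same direction at both levels are all among the 9 not called. Values are the effect at 300 µM minus that at 0.5 µM, in log2 units. Among single rises the values were 8.21 (Cs4g02690), 8.11 (orange1.1t05521, listed at 0 in 1 group, so the size depends on the pseudocount), 7.02 (Cs2g06910), 6.75 (Cs7g11650), 6.18 (Cs7g05270) and 5.74 (orange1.1t03024). In the rising run of chromosome 3 they were 7.25 and 6.69 for the first 2 members and 2.01 and 0.52 for the others. In that of chromosome 5 they were 4.52, 4.25, 4.39 and 1.76 in map order.

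Among falls the values were -1.28 (Cs2g31160), -0.92 (Cs3g26900), -2.03 (the locus on chromosome 8), -2.22 (Cs1g23100) and -1.86 (orange1.1t05402). The run on chromosome 2 had -1.89, -1.18, -0.92 and -1.14 in map order, and 3 members of the run on chromosome 4 had -1.34 (Cs4g03250), -1.43 (Cs4g03280) and -2.25 (Cs4g03300). Genes whose low pH effect was larger at 0.5 µM or turned had -3.15 (Cs1g19920), -3.12 (Cs7g01050) and -2.91 (orange1.1t05560).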

How the results depend on the processing

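The 38 named genes kept the direction of their difference in all 530 recomputations, and 36 kept their call in each; Cs1g19920 and Cs7g01050 were called only in the settings named here, Cs1g19920 with the replicate block (-0.62, adjusted p = 0.0149) and both without replicate 2 at pH 3. Leaving out each library gave 4285 to 7628 called genes, 2112 to 3518 higher and 2173 to 4110 lower. By 2-fold it gave 897 to 1002 higher and 475 to 618 lower. By 4-fold it gave 229 to 243 higher and 3 to 19 lower. Abundant genes numbered 259 to 528 in all, 101 to 171 higher and 158 to 357 lower, and low genes 651 to 1123 lower. Rising runs numbered 20 to 29 and falling ones 2 to 6. Genes at 5 FPKM or more at pH 3 with copper but 0.5 or less at pH 4.8 with copper numbered 36 to 52. With a library left out, that rule can only be met by as many genes or more, so this range does not test the main count of 35. A pseudocount of 0.1 gave 2263 2-fold genes (1001 lower), 4-fold changes of 495 higher and 52 lower, 39 rising and 11 falling runs, and 275 and 254 falls near pH 3 and pH 4.8 with copper. A filter of 5 FPKM gave 430 low genes (198 higher, 232 lower), 12 rising runs and 244 rises near pH 4.8 with copper, as fewer genes were tested. With all 12 libraries in the fit 8118 genes were called. Replicate numbers were not used to pair the libraries. Same-numbered deviations correlated at 0.03, 0.17 and -0.22, and differently numbered ones at -0.29 to 0.33, which does not settle whether libraries were paired. The fit with a replicate block called 5732 genes. At these depths genes near the floor cannot be told from 0.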
